A study of Homo sapiens with 3 samples.

Results

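The TNF ligand and receptor superfamily was described in the human leukaemia line ALL-SIL, which grows in culture and derives from a T-cell acute lymphoblastic leukaemia. The members were the protein-coding RefSeq genes of GRCh38 whose symbol begins with TNFRSF or TNFSF, together with TNF, LTA, LTB, LTBR, CD27, CD40, CD40LG, CD70, FAS and FASLG. This gave 43 of 20037 protein-coding genes, among them 17 ligands, 25 receptors and the readthrough gene TNFSF12-TNFSF13, which covers the spans of TNFSF12 and TNFSF13. Cultured cells, for which no drug or other agent is named, were crosslinked, and their chromatin was immunoprecipitated for H3K4me1 or for H3K4me3 and sequenced; peaks of each mark were called against input DNA of the same line. Each of the 3 samples was 1 library, so no value below has a replicate error and no test between groups of genes was made.

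Ligands of this superfamily are mostly trimeric proteins on the surface of immune cells or shed from it, and their receptors pass the signal on through adaptor proteins. Receptors with a death domain can start apoptosis, others recruit TRAF proteins and switch on NF-kappaB, and decoy receptors bind ligand without passing on a signal. In T cells several members are costimulatory receptors, while FAS and its ligand take part in removing activated cells. H3K4me3 is known as a mark of active or poised promoters, and H3K4me1 as a mark of enhancers and of the flanks of promoters.

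The H3K4me1 list held 62087 peaks with a median length of 1020 bp and a median fold over the local input background of 2.37, from 34813455 filtered tags. The H3K4me3 list held 11100 peaks with a median length of 1397 bp and a median fold of 4.53, from 30823016 filtered tags. The input had 18859011 filtered tags. Fold and −log10 q are the authors' values for each peak and serve here only to describe peaks within 1 list. By the documented behaviour of the caller, which the file headers do not state, they are means over the whole broad peak. A high value in a short peak and a low one in a long peak are therefore not like measures. H3K4me3 lay at an end of 6 of 10 T-lineage genes, 0 of 5 B-lineage, 0 of 4 myeloid and 0 of 3 erythroid marker genes, against 49.4% of all protein-coding genes. Counting the inside of the gene too, it lay at 9 T-lineage genes (all but CD2), at 1 B-lineage gene (197 bp in PAX5), and at 0 myeloid and 0 erythroid genes, against 53.4%. It also lay at TLX1, a homeobox gene whose rearrangement characterises ALL-SIL.

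A mark was counted at a gene end if a peak came within 1 kb of either end of the gene span, by an overlap of at least 1 bp with that window. With all peaks kept, the most frequent state of superfamily genes there was H3K4me1 without H3K4me3. Both marks were at the ends of 10 of the 43 members (23.3%), against 34.1% of all protein-coding genes. H3K4me1 alone was at 18 members (41.9%), against 8.51% of all genes. Neither mark was at 13 members (30.2%), against 42.1% of all genes, and H3K4me3 alone at 2 members (4.65%), against 15.4%. In total H3K4me3 was at an end of 12 members (27.9%, against 49.4% of all genes) and H3K4me1 at an end of 28 (65.1%, against 42.6%). Members that lie beside each other share peaks, so the 43 genes are not 43 separate loci. The count of 18 with H3K4me1 alone moved with the peaks kept. In the upper 50% of each list by −log10 q it was 16 members (37.2%), against 13.9% of all genes. With the H3K4me1 list reduced to its 11100 peaks of highest −log10 q, which raises the stringency as well as shortening the list, it was 4 members (9.3%), against 1.56%. With only peaks of a −log10 q of 10 or more in both lists it was 1 member (2.33%), against 0.883%. In each of these stricter sets neither mark was the most frequent state, at 24, 27 and 39 members in the same order. The shares of all genes with neither mark were 60.4%, 49% and 76.9%.

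**Figure D1:**
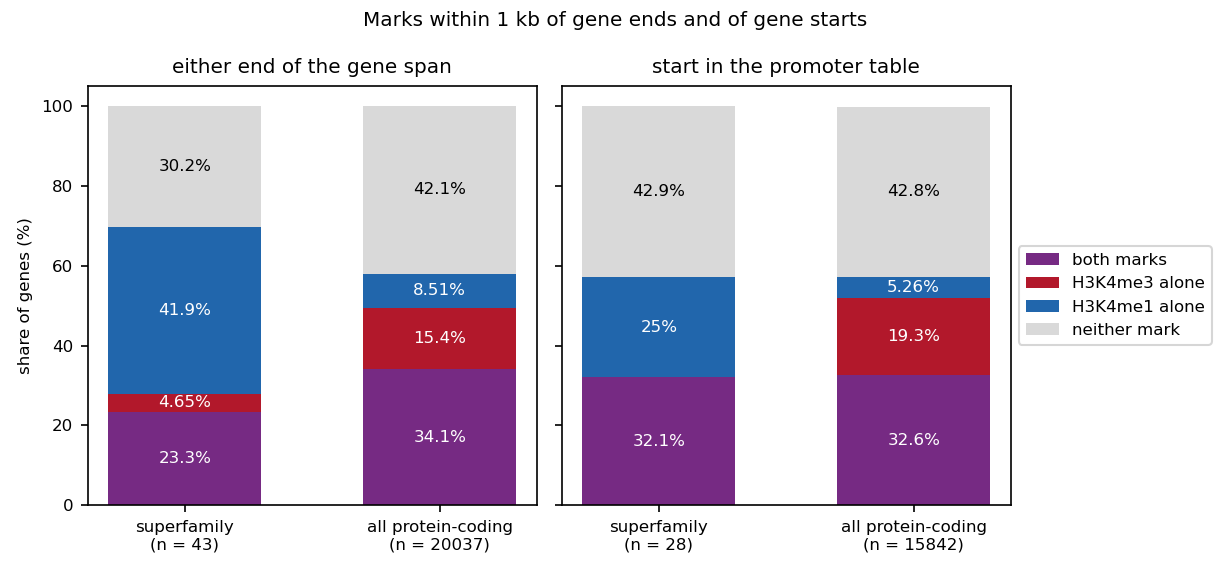
Share of genes (y axis, %) with both marks, H3K4me3 alone, H3K4me1 alone or neither mark within 1 kb of either end of the gene span (left) or of the gene start (right), for the superfamily and for all protein-coding genes. H3K4me1 alone takes 41.9% of the superfamily at gene ends against 8.51% of all genes, and 25% against 5.26% at starts.

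Inside the gene, beyond the end windows, H3K4me1 was at a share near that of all genes and H3K4me3 at a lower one. H3K4me3 lay inside 7 of the 42 members long enough to have an inside (16.7%, against 30.9% of 18780 genes) and H3K4me1 inside 29 (69.0%, against 60.7%). Counting ends and inside together, 14 members had H3K4me3 (32.6%, against 53.4% of all genes) and 36 had H3K4me1 (83.7%, against 63.4%). The 6 members with neither mark at an end or inside were CD40, CD70, TNFRSF11B, TNFRSF13C, TNFRSF17 and TNFRSF18 (14.0%, against 32.7%). CD40, the BAFF receptor TNFRSF13C and BCMA (TNFRSF17) are receptors best known from B cells and plasma cells. TNFRSF18 (GITR) is a costimulatory receptor, CD70 is the ligand of CD27, and TNFRSF11B (osteoprotegerin) is a soluble decoy receptor.

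**Figure D2:**
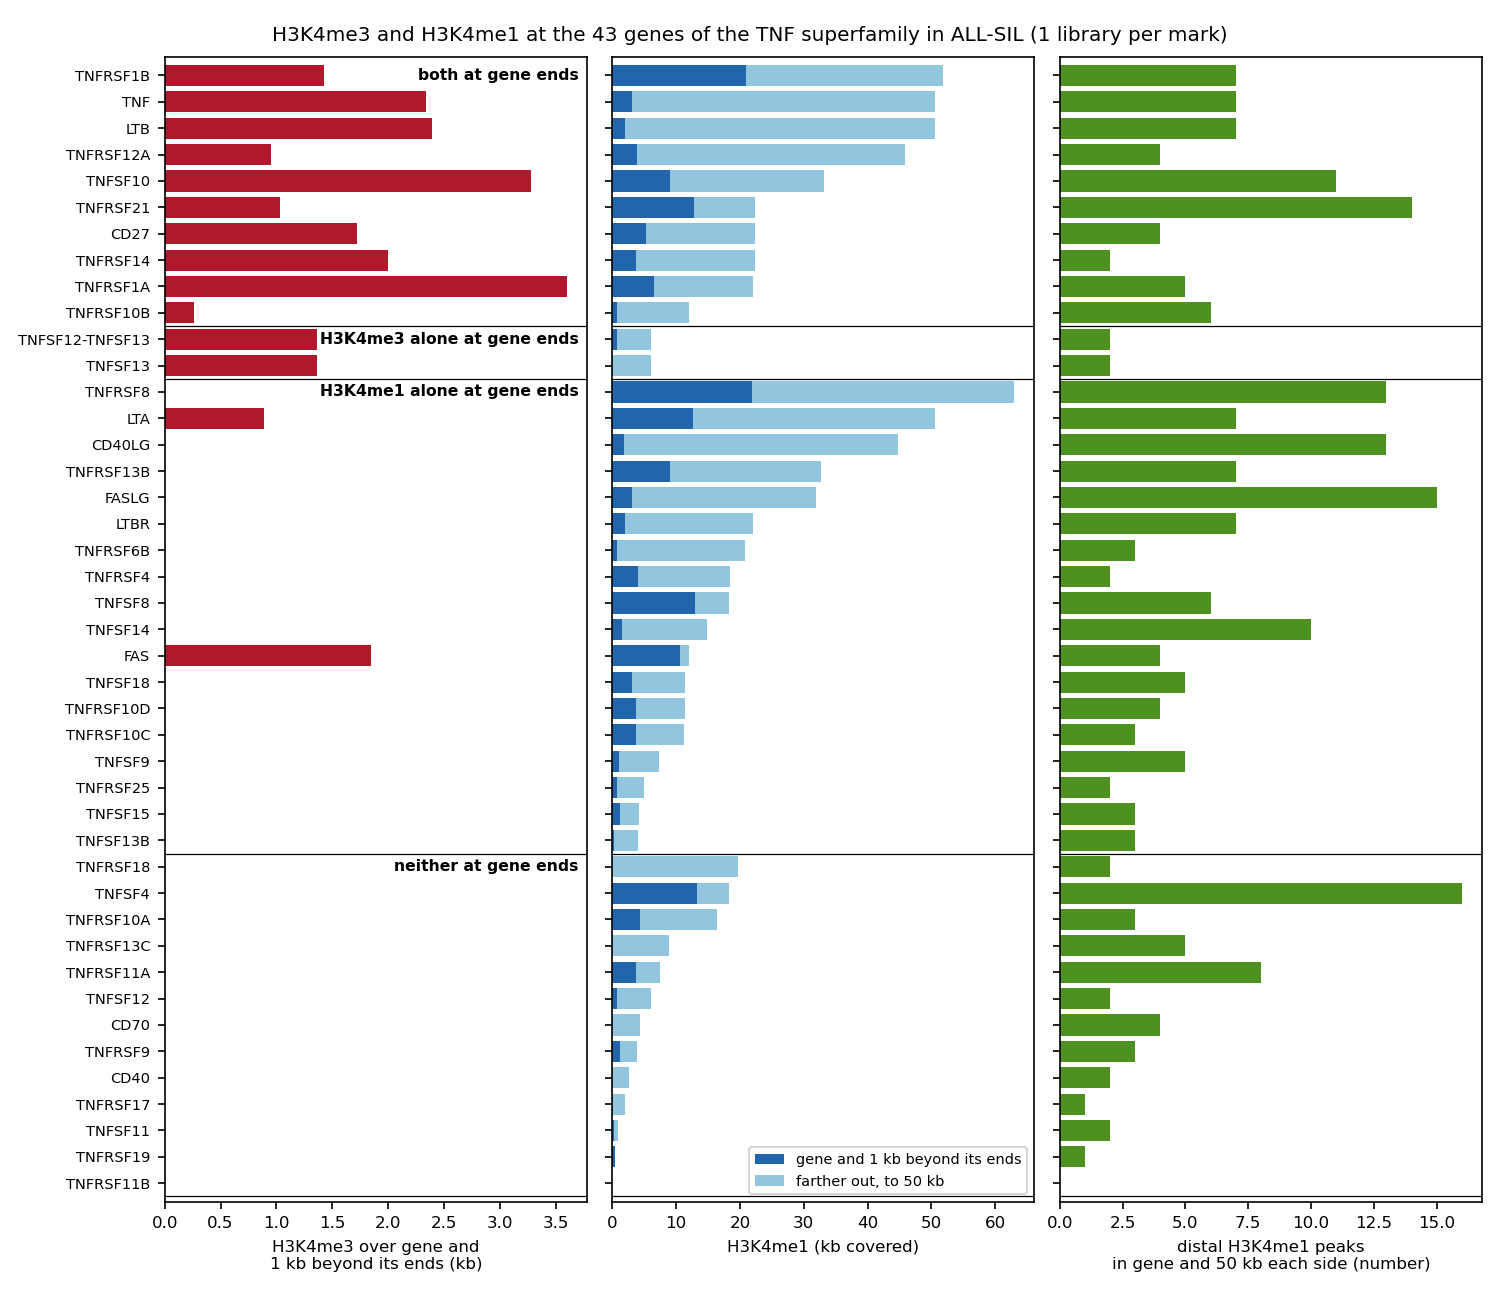
Each row is 1 of the 43 members, grouped by the marks at its ends. The bars give H3K4me3 over the gene and 1 kb beyond its ends (kb), H3K4me1 over the same stretch and out to 50 kb (kb), and the number of distal H3K4me1 peaks. H3K4me3 reaches at most 3.60 kb, at TNFRSF1A, and within 50 kb H3K4me1 runs from 0 kb at TNFRSF11B to 63.0 kb at TNFRSF8.

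A gene end need not be where transcription begins, so the start given by the RefSeq promoter table was used where it had an entry, which was the case for 28 members. At 6 of these the start lay more than 1 kb inside the span. H3K4me3 was within 1 kb of the start of 9 of the 28 (32.1%, against 51.9% of 15842 genes) and H3K4me1 of 16 (57.1%, against 37.9%). The 9 starts with H3K4me3 all had H3K4me1 as well, so both marks were at 32.1% of member starts, against 32.6% of all genes. They were the ligands TNF, LTA, LTB and TNFSF10, the death-domain receptors FAS, TNFRSF1A and TNFRSF21, and the receptors TNFRSF1B and TNFRSF14. H3K4me1 alone was at 7 starts (25%, against 5.26%), those of CD27, FASLG, TNFRSF13B, TNFRSF6B, TNFRSF8, TNFSF13B and TNFSF4. Neither mark was at 12 starts (42.9%, against 42.8%), those of LTBR, TNFRSF11A, TNFRSF18, TNFRSF19, TNFRSF25, TNFRSF9, TNFSF11, TNFSF13, TNFSF14, TNFSF15, TNFSF18 and TNFSF9. H3K4me3 alone was at 0 of the 28 starts, against 19.3% of all genes. The 15 members without an entry were CD40, CD40LG, CD70, TNFRSF4, TNFRSF10A, TNFRSF10B, TNFRSF10C, TNFRSF10D, TNFRSF11B, TNFRSF12A, TNFRSF13C, TNFRSF17, TNFSF8, TNFSF12 and TNFSF12-TNFSF13.

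The start also changed the reading of single genes. FAS, the death receptor, counted as H3K4me1 alone by its ends, because its start lay 26748 bp inside the span. An H3K4me3 peak of 1570 bp covered that start, with a fold of 6.80 and a −log10 q of 13.86. LTA, the gene of lymphotoxin alpha, had its start 11489 bp inside the span, with an H3K4me3 peak of 884 bp at a fold of 2.09. The other way round, CD27, a costimulatory receptor of T cells, counted as having both marks by its ends, but its H3K4me3 peak of 2171 bp lay at the far end of the gene, 7098 bp past its start, over the start of TAPBPL. At TNFSF13 (APRIL) and the readthrough gene, the H3K4me3 peak of 1442 bp lay over the start of SENP3 next to them.

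**Figure D3:**
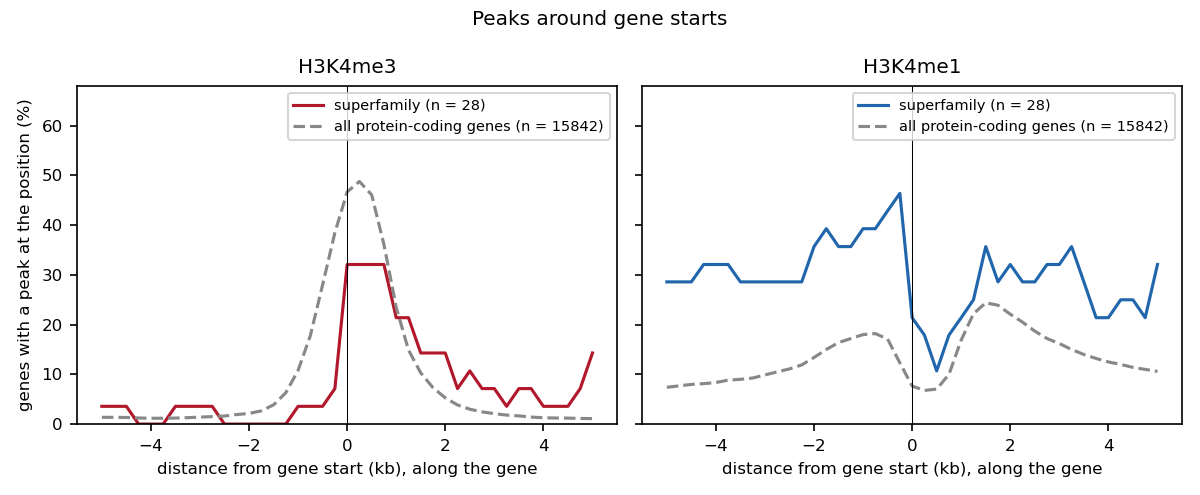
Share of gene starts (y axis, %) with a peak at each distance from the start (x axis, kb, along the gene), for the 28 superfamily genes with a start and for all 15842. H3K4me3 covered the start itself at 32.1% of the superfamily and 46.7% of all genes, and 1 kb before the start H3K4me1 covered 39.3% of the superfamily and 18.0% of all genes.

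The promoters below are examples of the 3 patterns at the start and were not chosen as typical of them. Each window runs from 250 bases before the start to 50 after it, 5′ to 3′ on the strand of the gene, from RefSeq in GRCh38.p14. Capitals mark matches on either strand to CGGAAG (the ETS core), TGTGGT (the RUNX core), TATAAA (the TATA box) and the kappaB motif, and a window without capitals holds none of them. LTB, with the most H3K4me3 in its end windows (chromosome 6, chr6:31582376-31582675, minus strand), TNF (chr6:31575315-31575614, plus strand) and FAS (chr10:88990548-88990847, plus strand) had both marks at the start. CD27 (chr12:6443642-6443941, plus strand) and TNFSF4 (chr1:173205483-173205782, minus strand) had H3K4me1 alone there. TNFRSF11A (chr18:62325060-62325359, plus strand) had neither. LTB and CD27 were taken because they had the most H3K4me3 in their end windows. TNFSF4 and TNFRSF11A had the most distal H3K4me1 peaks (defined below) among members with neither mark at an end. TNF and FAS were added after their values were seen. LTB had the fewest CG pairs (2) of the 9 promoters with H3K4me3, and TNFRSF11A the most (37) of the 19 without it.
LTB: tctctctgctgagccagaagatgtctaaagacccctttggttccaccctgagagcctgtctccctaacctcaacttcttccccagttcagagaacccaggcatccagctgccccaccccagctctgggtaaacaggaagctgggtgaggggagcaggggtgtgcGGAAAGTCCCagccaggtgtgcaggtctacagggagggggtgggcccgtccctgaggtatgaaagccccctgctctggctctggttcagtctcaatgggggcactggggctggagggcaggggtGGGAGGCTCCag
TNF: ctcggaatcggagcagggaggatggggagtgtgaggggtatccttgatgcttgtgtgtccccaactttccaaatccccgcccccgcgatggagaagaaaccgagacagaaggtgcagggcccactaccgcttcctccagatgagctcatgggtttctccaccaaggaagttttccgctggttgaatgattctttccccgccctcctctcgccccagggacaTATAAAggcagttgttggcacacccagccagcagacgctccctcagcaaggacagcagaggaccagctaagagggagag
FAS: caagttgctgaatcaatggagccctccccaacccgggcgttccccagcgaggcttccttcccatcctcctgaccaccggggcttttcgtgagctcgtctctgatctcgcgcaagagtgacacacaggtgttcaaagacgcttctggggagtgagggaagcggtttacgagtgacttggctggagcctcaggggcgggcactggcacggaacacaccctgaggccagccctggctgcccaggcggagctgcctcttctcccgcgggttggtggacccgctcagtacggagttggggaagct
CD27: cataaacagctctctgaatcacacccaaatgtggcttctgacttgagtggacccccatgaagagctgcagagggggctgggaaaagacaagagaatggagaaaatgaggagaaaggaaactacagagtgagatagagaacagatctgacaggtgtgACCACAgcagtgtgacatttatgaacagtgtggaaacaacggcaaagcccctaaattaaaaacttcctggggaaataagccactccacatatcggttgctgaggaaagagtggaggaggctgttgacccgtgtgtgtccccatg
TNFSF4: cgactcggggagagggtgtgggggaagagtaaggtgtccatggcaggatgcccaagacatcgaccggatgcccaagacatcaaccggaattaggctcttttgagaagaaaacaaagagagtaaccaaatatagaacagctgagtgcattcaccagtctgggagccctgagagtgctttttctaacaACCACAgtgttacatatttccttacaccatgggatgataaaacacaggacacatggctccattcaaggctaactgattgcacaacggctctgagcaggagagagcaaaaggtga
TNFRSF11A: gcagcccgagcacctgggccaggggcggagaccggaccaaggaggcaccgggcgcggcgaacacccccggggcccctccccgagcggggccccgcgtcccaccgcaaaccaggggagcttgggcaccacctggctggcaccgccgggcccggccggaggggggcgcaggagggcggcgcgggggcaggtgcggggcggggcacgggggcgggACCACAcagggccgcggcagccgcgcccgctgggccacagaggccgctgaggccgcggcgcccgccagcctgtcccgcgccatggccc

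The superfamily promoters with H3K4me3 at the start were poorer in CG pairs than promoters with H3K4me3 in general. The 9 promoters with H3K4me3 held a median of 11 CG pairs in this window (range 2 to 27), against 27 for all 8223 promoters with H3K4me3 at the start. The 19 without it held a median of 7 (0 to 37), against 9 for all 7619 such promoters. LTB had 2 CG pairs, TNFSF10 had 3, and LTA and TNFRSF1A had 4 each, all with H3K4me3. TNFRSF11A (RANK, the receptor of TNFSF11) had 37, TNFRSF25 (DR3) had 31, LTBR had 29 and TNFSF9 (the 4-1BB ligand) had 27, all without H3K4me3 or H3K4me1 at the start. The G + C share showed a smaller gap, with a median of 60.3% for the 9 marked members, against 65.3% for all marked promoters.

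Motif matches in these windows are letters only. The ETS core was in 4 of the 28 member promoters (14.3%, against 25.6% of 15842), and the RUNX core in 6 (21.4%, against 10.8%). The TATA box was in 4 (14.3%, against 9.63%), those of TNF, TNFSF10, TNFRSF18 and TNFSF9. The kappaB motif was in 5 (17.9%, against 12.3%), those of LTB, TNFRSF14, TNFRSF25, TNFRSF9 and TNFSF14. In LTB a kappaB match began 86 bases before the start, and in TNF the TATA match began 29 bases before it. The TATA matches of TNFSF10 and TNFSF9 began 31 and 30 bases before the start, but that of TNFRSF18 began 250 bases before it. Matches of the kappaB motif can overlap each other and can be read on both strands.

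**Figure D4:**
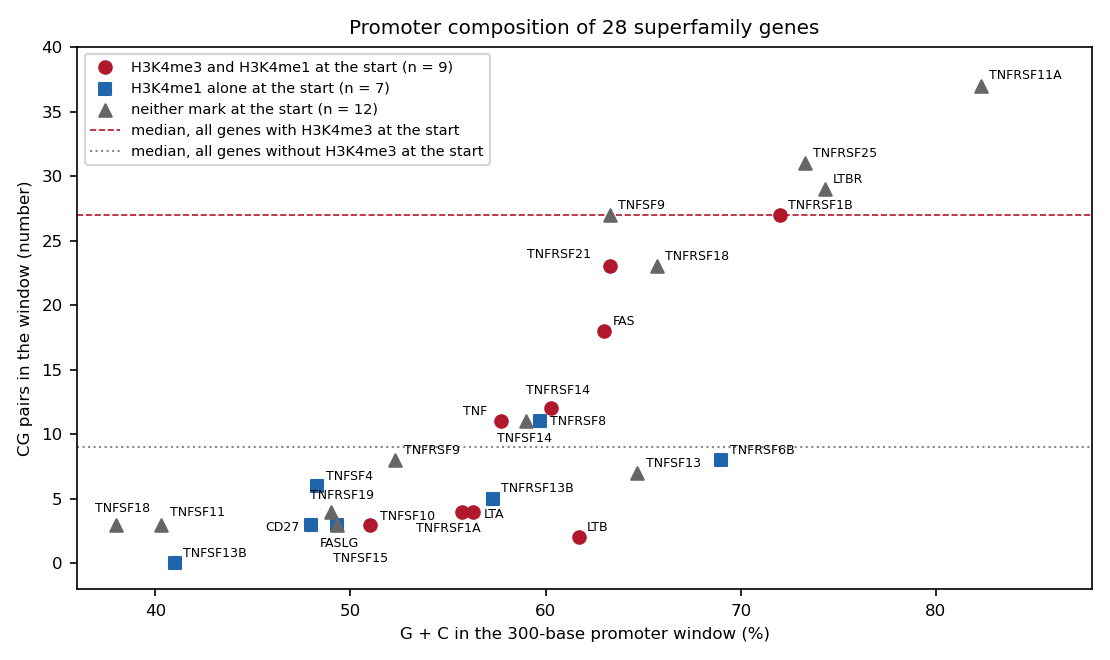
G + C share (x axis, %) and number of CG pairs (y axis) in the promoter window (250 bases before the start to 50 after it) of each of the 28 members with an entry. Starts with H3K4me3 run from LTB with 2 CG pairs to TNFRSF1B with 27. Starts without it run from TNFSF13B with 0 to TNFRSF11A with 37.

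Among the ligands, 3 of 17 had both marks at their ends, 1 had H3K4me3 alone, 9 had H3K4me1 alone and 4 had neither. The shares of all genes were 34.1%, 15.4%, 8.51% and 42.1% in the same order. TNFSF10 (TRAIL), the ligand of the TNFRSF10 receptors, had the longest H3K4me3 peak at any member. It was 3282 bp long (chromosome 3, 172520365 to 172523646), reached 3065 bp past the start, and had a fold of 5.31 and a −log10 q of 11.55. By length it stood at the 94.7th percentile of the H3K4me3 list, and by fold at the 64.5th. An H3K4me1 peak of 8376 bp lay further inside the gene (fold 2.80), and another of 1493 bp before the start (fold 3.31).

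TNF, LTA and LTB lie side by side on chromosome 6, and each had its own H3K4me3 peak at its start. The TNF peak was 2338 bp long (31575472 to 31577809, fold 3.51), the LTB peak 2394 bp (31580369 to 31582762, fold 3.43), and the LTA peak 884 bp (31572039 to 31572922, fold 2.09). By fold they stood at the 27.3rd, 25.2nd and 2.1st percentile of the list, so the LTA peak was among the lowest in fold. An H3K4me1 peak of 2588 bp ran from inside LTA to 154 bp short of TNF, and another of 3548 bp from inside TNF into the near end of LTB. A further H3K4me1 peak of 12668 bp (31551168 to 31563835) lay over the lower-numbered end of the LTA span. The 3 genes share nearly all their surroundings, with 50.5, 50.6 and 50.6 kb of H3K4me1 within 50 kb of LTA, TNF and LTB. The lncRNA gene LOC100287329 also has an end at the LTA peak.

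Other ligands were marked by H3K4me1 alone. FASLG, the ligand of FAS, had 566 bp of H3K4me1 over its start (fold 1.90) and no H3K4me3 within 50 kb. CD40LG, the ligand of CD40 known from activated helper T cells, also had no H3K4me3 within 50 kb, with 1291 bp of H3K4me1 in its end windows. TNFSF8 (the CD30 ligand) had an H3K4me1 peak of 9468 bp within the gene span, with a fold of 2.70 and 376 bp of it in an end window. TNFSF14 (LIGHT) had H3K4me1 of 1095 bp at its far end, with a fold of 4.19. TNFSF13B (BAFF) had 229 bp at its start at a fold of 1.65. TNFSF15 had 1220 bp in its end windows, TNFSF9 1120 bp and TNFSF18 944 bp, in each case away from the start. The 4 ligands with neither mark at an end were TNFSF4, TNFSF11, TNFSF12 and CD70.

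The death-domain receptors were split. TNFRSF1A, the main TNF receptor of most cells, had the most H3K4me3 of all members, 3600 bp in 2 peaks. The peak at the start was 2624 bp long (chromosome 12, 6339563 to 6342186, fold 4.70) and the other, inside the gene, 976 bp (fold 5.40). H3K4me1 of 5996 bp lay before the start (fold 2.72) and of 5594 bp inside the gene (fold 2.20). FAS, beside the peak at its start (chromosome 10, 88990702 to 88992271), had a short peak of 278 bp inside the span, with its nearer edge at -15368 bp from the start, and 10.6 kb of H3K4me1 over the gene. The peak at the FAS start also lay within 1 kb of the start of ACTA2 and of an end of FAS-AS1. TNFRSF21 (DR6) had H3K4me3 of 1035 bp at its start (fold 3.08) and 8 H3K4me1 peaks inside the gene. TNFRSF25 had H3K4me1 of 802 bp at its far end, beside an end of ESPN.

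The 5 members on chromosome 8 include 4 of the receptors for TNFSF10 and TNFRSF11B. TNFRSF10B (DR5) had an H3K4me3 peak of 1083 bp at a fold of 2.12, 736 bp beyond its lower-numbered end and beside an end of RHOBTB2, with 265 bp of it in the end window. TNFRSF10C, a decoy receptor, had the H3K4me1 peak of highest fold at any member's end. That peak was 3711 bp long, with a fold of 5.48 and a −log10 q of 10.15, and the lncRNA gene LOC254896 also has an end at it. TNFRSF10D, a further decoy, had 3648 bp at a fold of 2.29. TNFRSF10A (DR4) had 4406 bp inside the gene only, and TNFRSF11B had no peak of either mark within 50 kb. The local background at called peaks, in fragments per base, was higher on chromosome 8 than on the other autosomes. Its median was 2.76 on chromosome 8 against 2.02 elsewhere for H3K4me3, and 2.51 against 1.88 for H3K4me1, and its part in these calls was not tested.

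Of the 7 costimulatory receptors of T cells, 3 had both marks at their ends, 2 had H3K4me1 alone and 2 had neither. In the same order, the shares of all genes were 34.1%, 8.51% and 42.1%. TNFRSF14 (HVEM), the receptor of TNFSF14, had an H3K4me3 peak of 1995 bp over its start (chromosome 1, 2555233 to 2557227, fold 6.34, −log10 q 13.15). It lay inside an H3K4me1 peak of 3728 bp, and an end of TNFRSF14-AS1 lay at the same peak. TNFRSF1B, the TNF receptor found mainly on immune cells, had H3K4me3 of 1429 bp at its start (12166935 to 12168363, fold 6.26), with H3K4me1 of 10148 bp before it (fold 2.07) and of 11131 bp further inside the gene (fold 2.23). CD27 had an H3K4me1 peak of 7204 bp over its start (chromosome 12, 6440253 to 6447456, fold 3.28) and no H3K4me3 there. TNFRSF8 (CD30) had 7607 bp of H3K4me1 from 887 bp past its start and 11904 bp at its far end, with folds of 2.39 and 1.86. A short peak of 310 bp inside TNFRSF8 had the highest H3K4me1 fold at any member, 7.01, with a −log10 q of 13.78. TNFRSF4 (OX40) had 3166 bp in its end windows, and its neighbour TNFRSF18 had none. TNFRSF9 (4-1BB) had a single H3K4me1 peak of 1188 bp inside the gene.

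H3K4me3 was at an end of, or inside, 0 of the 4 receptors of B cells and antigen-presenting cells, against 53.4% of all genes. TNFRSF13B (TACI) was the exception for H3K4me1, with 11501 bp over its start (chromosome 17, 16968850 to 16980350, fold 2.17) and 2379 bp at its far end. The lncRNA gene LOC284191 also has an end at the peak over the TNFRSF13B start. Of the 4 decoy receptors, 0 had H3K4me3 at an end, against 49.4% of all genes, and 3 had H3K4me1 there, against 42.6%. The third of these was TNFRSF6B, with 745 bp over its start, beside RTEL1. Among the 4 remaining receptors, TNFRSF12A (the TWEAK receptor) had H3K4me3 of 952 bp at a fold of 1.85, at the 0.8th percentile of the list. It lay inside an H3K4me1 peak of 6177 bp, which also came within 1 kb of the starts of HCFC1R1 and THOC6. LTBR, the lymphotoxin beta receptor, had H3K4me1 of 2053 bp at the lower-numbered end of its span, with its nearer edge at -6334 bp from the start. SCNN1A also has an end at that peak. TNFRSF11A and TNFRSF19 had H3K4me1 inside the gene only.

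H3K4me3 at the 9 marked starts lay mainly downstream. It reached a median of 100 bp before the start and 1473 bp past it, against 546 and 939 bp at all 8223 starts with H3K4me3. TNFRSF14 was the exception, with 1138 bp before and 856 bp past the start. H3K4me1 lay within 2 kb of both edges of the H3K4me3 peak at all 9, against 58.7% of all marked starts. The 9 are not separate cases, because an H3K4me1 peak of 2588 bp was counted for both LTA and TNF. Another of 3548 bp was counted for both TNF and LTB. Peaks were called per mark in 1 library each, so the share of cells with both marks cannot be read from them.

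**Figure D5:**
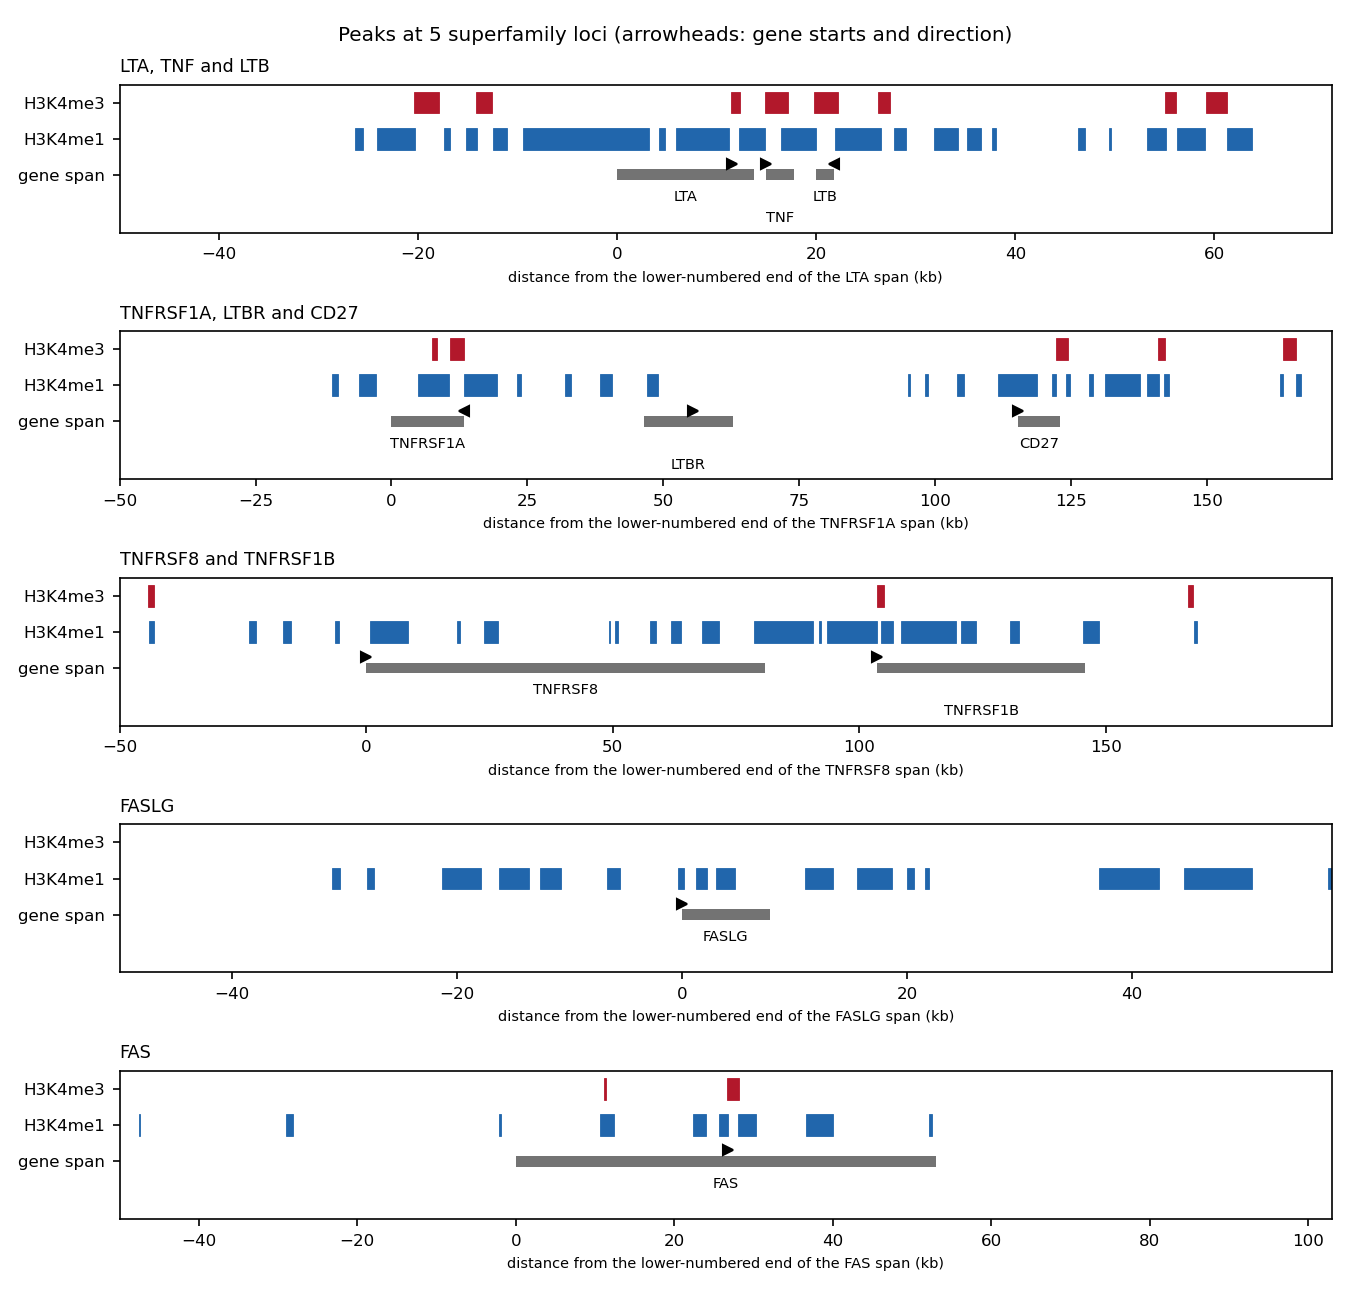
Peaks of each mark (boxes) around LTA, TNF and LTB, around TNFRSF1A, LTBR and CD27, around TNFRSF8 and TNFRSF1B, around FASLG, and around FAS, by distance in kb from the lower-numbered end of the first gene named in each panel. Gene spans are grey and arrowheads mark starts and direction. FASLG has 16 H3K4me1 peaks within 50 kb and no H3K4me3, while FAS has H3K4me3 at a start 26748 bp inside its span.

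Within 50 kb, 42 of the 43 members had an H3K4me1 peak (97.7%, against 81.9% of all genes), TNFRSF11B being the exception, and 28 had an H3K4me3 peak (65.1%, against 71.5%). Distal H3K4me1 peaks were those that overlapped no H3K4me3 peak and no end window of any protein-coding or lncRNA gene. At least 1 of them was within 50 kb of 42 members (97.7%, against 77.5%). Members had a median of 4 over the gene and 50 kb on each side, against 3 for all genes, and 3.71 per 100 kb of that stretch, against 1.92. The median by class was 6.5 for the 10 members with both marks, against 4 for all such genes, and 5 for the 18 with H3K4me1 alone, against 5. It was 2 for the 13 members with neither mark, against 1.

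The most distal peaks for the length surveyed were at FASLG, with 15, or 13.9 per 100 kb. Of all protein-coding genes, 99.95% had a lower density. The longest were 6060 bp and 5298 bp long, 36858 and 29300 bp beyond the far end of the gene, and the 16 peaks within 50 kb covered 31.9 kb. CD40LG followed with 13 distal peaks, or 11.6 per 100 kb (99.74% of genes lower), and 44.8 kb of H3K4me1 within 50 kb, of which 8929 bp lay in 1 peak 23768 bp from the gene. TNFSF10 had 11 (9.33 per 100 kb) and TNFSF14 had 10 (9.15 per 100 kb). TNFRSF21 had 14, of which 8 lay inside the gene.

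By length of H3K4me1 within 50 kb, TNFRSF8 came first with 63.0 kb and its neighbour TNFRSF1B next with 51.8 kb, the windows of both covering some of the same peaks. LTB, TNF and LTA followed, and TNFRSF12A had 45.9 kb, of which 15970 bp lay in 1 peak 19742 bp from the gene. Of members with neither mark at an end, TNFSF4 (the OX40 ligand) had 16 distal peaks over a span of 278 kb, or 4.23 per 100 kb. An H3K4me1 peak of 2160 bp (fold 2.67) covered its start, which lay 245201 bp inside the span. TNFRSF11A had 8 distal peaks, 4 of them inside the gene, TNFRSF13C had 5, CD70 had 4, and TNFRSF9 and TNFRSF10A had 3 each. TNFRSF18, CD40, TNFSF11 and TNFSF12 had 2 each, and TNFRSF17 and TNFRSF19 had 1 each.

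With all peaks kept, most genes that pass on the signal of these receptors carried both marks at their ends. These were 19 of 27, against 34.1% of all protein-coding genes. Of 27 signalling genes, 23 had H3K4me3 at an end, against 49.4% of all protein-coding genes, and 26 at an end or inside, against 53.4%. H3K4me1 was at an end of 23, against 42.6% of all genes. The adaptors TRADD, FADD and RIPK1 all had both marks at their ends, as did the apoptosis genes CASP8 and CFLAR, the ubiquitin ligases BIRC2 and BIRC3, and TNFAIP3, an inhibitor of NF-kappaB signalling. CASP8 carried 4.94 kb of H3K4me3 over the gene and 1 kb beyond its ends, CFLAR 3.55 kb and CASP10 3.49 kb. TRAF2, TAB2 and IKBKG had H3K4me3 inside the span only, at their start in each case. TRAF5 was without H3K4me3 and had 313 bp of H3K4me1 in its end windows. TRAF1 had 419 bp of H3K4me3 in its end windows and 60.8 kb of H3K4me1 within 50 kb. Of 5 genes of the superfamily with other names, RELT had both marks, NGFR had H3K4me1 alone, and EDA, EDAR and EDA2R had neither at an end.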

How the data were processed

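ChIP-seq of H3K4me1 and H3K4me3 in ALL-SIL was analysed with 1 library per mark; the input DNA entered only through peak calling. Per the file headers, the authors ran the broad mode of MACS2 (version 2.1.0.20150731), keeping 1 tag per position and cutting broad regions at a q of 0.1 and strong ones at 0.05. STAR appears in the paths of the aligned files there, and its version is not given in the sources used here. GRCh38 was the build, per the submitters' processing notes. The deposited tables gave, per peak, the pileup (a coverage signal), the fold over local input background (a ratio) and a −log10 value for p and for q, as the authors' caller wrote them. The deposited peak length was in bp; other numbers follow from overlap.

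Gene spans, 20037 protein-coding and 18303 lncRNA genes, came from RefSeq GRCh38.p14, and starts from the RefSeq promoter table of that build (15842 protein-coding genes, 28 members). Overlaps were computed with Python 3.11.15, pandas 2.3.3 and numpy 2.4.6 and checked on simulated data. The local background at a peak was taken as pileup plus 1, divided by fold, minus 1. No test was made, because there are no replicates. Every member was named; full values went to those with the most of either mark, to those with H3K4me1 alone, to unmarked ones with the most distal peaks, and to those that share peaks. The members and lists were chosen with earlier results of these data known. Alternatives were stricter peak sets, other windows and a larger overlap.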

Additional observations from a re-analysis of the deposited data

How the results depend on the processing

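Under stricter peak sets fewer members had either mark at an end and more had neither, except that H3K4me3 at an end stayed at 12 where only the H3K4me1 list was cut. A −log10 q minimum of 10 left 1750 H3K4me1 and 4828 H3K4me3 peaks. H3K4me3 was then at an end of 3 members (6.98%, against 22.3% of all genes) and at the start of 4. H3K4me1 was at an end of 1 (2.33%, against 1.55%) and both marks were at 0 (against 0.669%). There was 1 member with H3K4me1 alone (2.33%, against 0.883% of all genes), and 3 had H3K4me3 alone (6.98%, against 21.6%). Neither mark was at 39 (90.7%, against 76.9%). H3K4me3 was inside 4 members and H3K4me1 inside 3, the median of distal peaks was 0, and the signalling genes with H3K4me3 and H3K4me1 at an end were 9 and 1. The upper part of each list was the 50% with the highest −log10 q. In it H3K4me3 was at an end of 3 members (6.98%, against 25.7% of all genes) and at the start of 4. H3K4me1 was at an end of 19 (44.2%, against 23.9%) and alone at 16 (37.2%, against 13.9%). Both marks were at 3 (6.98%, against 10%), neither at 24 (55.8%, against 60.4%) and H3K4me3 alone at 0 (against 15.7%). The distal median was 2, and the signalling genes were 12 and 11. When the H3K4me1 list was cut to its 11100 peaks of highest −log10 q, H3K4me1 was at an end of 5 members and inside 10. At an end this was 11.6%, against 9.09% of all genes. Then 1 member had both marks (2.33%, against 7.53% of all genes) and 11 had H3K4me3 alone (25.6%, against 41.9%). H3K4me1 alone was at 4 (9.3%, against 1.56%) and neither mark at 27 (62.8%, against 49%). The distal median was 1, with 6 signalling genes with H3K4me1. An end window of 0.5 kb put H3K4me3 inside 11 members and a window of 2.5 kb inside 4, and with 2.5 kb H3K4me3 alone was at 0. A reach of 100 kb gave a distal median of 8. Without the readthrough gene, an alternative chosen after seeing the data, H3K4me3 alone was at 1 member. Adding the RefSeq start to the end windows, also chosen after seeing the data, gave 14 members with H3K4me3, 29 with H3K4me1, 12 with both marks, 17 with H3K4me1 alone and 12 with neither. Under the alternatives, shares of all genes were computed only for marks at gene ends in the stricter peak sets. The other counts and the distal medians here therefore cannot be set against all genes. Of 85 values under 10 alternatives, 53 stayed within 1.5 times the reported one. These include values that could not change. Where only the H3K4me1 list was cut, the counts with H3K4me3 at ends, inside, at starts and at signalling genes were fixed. No paired analysis was possible because each mark had 1 library and no test was made. The H3K4me1 calls rest on a median −log10 q of 2.27, so absence of a peak means only that none was called at this depth.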
